A study of Mus musculus with 6 samples.

Results

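Alternative promoters let 1 gene start its transcripts at widely separated places, and so give messages that differ in their first exons and, in some genes, proteins that differ at the N terminus. The starts of a gene are often used in different cell types. Acetylation of lysine 27 on histone H3 (H3K27ac) is found at active promoters and also at active enhancers, so that a peak over an internal start of a gene is a mark at that start and cannot be told apart from an enhancer inside the gene. Promoters of broadly used genes in mammals often lie in CpG islands, stretches in which the dinucleotide CG is not depleted as it is in most of the genome.

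The members described here are the promoters of protein-coding genes with transcription start sites (TSSs) that lie far apart. From the GENCODE vM21 basic annotation of the mouse genome GRCm38, protein-coding genes with 2 or more TSSs were taken if the outermost TSSs were at least 20 kb apart. TSSs within 2.5 kb of each other were grouped into 1 promoter, with a window of 2.5 kb on either side. This gave 3282 promoters of 1341 genes, of 26282 promoters of 21938 protein-coding genes in all. Of the 1341 genes, 911 (67.9%) had 2 promoters, 304 had 3 and 126 had 4 or more, with a highest number of 8. The median distance between the outermost TSSs was 56.1 kb and the longest was 2857 kb. Just inside the limit were Mas1 (20023 bp) and Dctn1 (20026 bp), and just outside it were Rimklb (19970 bp) and Asb8 (19966 bp). Promoters of a gene were numbered in the direction of transcription, so that promoter 1 is the most upstream one, called first here. The most downstream one is called last, and those between are called middle. Neighbouring promoters of a gene were a median of 39.3 kb apart, and in 75 of 1941 neighbouring pairs the windows overlapped.

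H3K27ac ChIP-seq was performed on bulk retina of wild-type mice that were 3 months old. In the 4xIOP group (n = 3) the intraocular pressure (IOP) of an eye had been raised to 30 mmHg for 1 h, 4 times, and retinas were taken on day 2 after the 4th elevation. The control group (n = 3) consisted of contralateral eyes taken at the same time. Both groups carry the same genotype. The protocol text for the series also speaks of injections of dasatinib, a kinase inhibitor used to remove senescent cells, or of vehicle, but no sample label assigns either. The comparison asks how 4 pressure elevations alter the mark in the young retina. No aged samples were analysed here. Each sample has 1 peak list, called on that sample alone, and the labels do not give which retinas came from the same animal, so that p-values measure only the spread between these samples.

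Before the results, 2 properties of the lists have to be stated. The name of the deposited list gives the other group in 4 of the 6 samples (control 1 and 2, 4xIOP 1 and 2). Groups were taken from the labels, and every direction between groups holds for the samples as labelled. Control 3 stood apart, with 36509 peaks covering 20.1 Mb, where the other 5 lists held 16195 to 21893 peaks covering 6.66 to 10.8 Mb. The median fold enrichment of the peaks was 3.87 to 4.33 in the 6 lists, and the median number of fragments at a peak's summit, recovered from fold and p, was 26 to 37. Of the photoreceptor genes, Nrl, Nr2e3, Pde6b and Gnat1 were marked in all 6 lists and the cone genes Opn1sw and Arr3 in none. Of 5 markers of Müller glia, Glul was marked in all 6 lists and Rlbp1, Sox9 and Aqp4 in none. Of markers of bipolar, amacrine and horizontal cells 4 of 7, and of ganglion cell markers 3 of 6, were marked in at least 1 list and 0 in all 6. Of 5 markers each of pigment epithelium, lens and cornea, microglia and non-ocular tissue, 0 were marked in any list. In bulk tissue, fewer cells of a type and less of the mark per cell cannot be told apart.

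A promoter was called marked in a list if a peak overlapped its window by at least 1 bp. The DNA upstream of a few promoters is shown first, because the base composition of a promoter went together with whether it was marked. Each run gives the 250 bases upstream of the promoter's TSS with the most transcripts, 5′ to 3′ in the direction of the gene, read from the RefSeq sequence of GRCm38, and 0 of these bases lie in an annotated exon. Capitals mark each CG, the letters TATAAA or its reverse complement TTTATA, and the letters TAATCC or its reverse complement GGATTA. The letters TATAAA are the core of the TATA box and TAATCC those bound by the photoreceptor factor CRX and related homeodomain proteins. Over the 250 upstream bases of all 26282 promoters, 12.4% held TATAAA and 6.87% held TAATCC on either strand. Promoter 2 of Ctbp2 is shown because it was marked in all 6 lists with few CG. It lies at chr7:133015249-133015498 (minus strand, 7 CG). The letters TTTATA and TATAAA overlap in it, and GGATTA occurs 1 time.
Ctbp2 promoter 2: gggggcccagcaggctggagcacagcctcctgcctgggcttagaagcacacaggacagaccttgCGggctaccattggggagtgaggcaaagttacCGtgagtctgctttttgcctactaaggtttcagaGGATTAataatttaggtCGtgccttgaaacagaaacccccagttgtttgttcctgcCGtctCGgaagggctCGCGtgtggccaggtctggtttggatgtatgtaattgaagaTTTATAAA

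Thrb and Atf3 are shown because a single promoter of each gene was marked, the first in Thrb and the last in Atf3. Thrb promoter 1, marked in all 6 lists, lies at chr14:17660646-17660895 (plus strand, 33 CG), and promoter 2, marked in none, at chr14:17981279-17981528 (plus strand, 2 CG and 1 TATAAA). Atf3 promoter 1, marked in none, lies at chr1:191218040-191218289 (minus strand, 5 CG), and promoter 2, marked in all 6, at chr1:191183341-191183590 (minus strand, 23 CG).
Thrb promoter 1: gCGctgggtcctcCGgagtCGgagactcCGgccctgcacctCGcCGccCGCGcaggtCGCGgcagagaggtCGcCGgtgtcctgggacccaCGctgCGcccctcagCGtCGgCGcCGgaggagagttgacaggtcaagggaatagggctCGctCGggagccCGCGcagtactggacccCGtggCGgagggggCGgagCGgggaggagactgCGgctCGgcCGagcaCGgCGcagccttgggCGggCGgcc
Thrb promoter 2: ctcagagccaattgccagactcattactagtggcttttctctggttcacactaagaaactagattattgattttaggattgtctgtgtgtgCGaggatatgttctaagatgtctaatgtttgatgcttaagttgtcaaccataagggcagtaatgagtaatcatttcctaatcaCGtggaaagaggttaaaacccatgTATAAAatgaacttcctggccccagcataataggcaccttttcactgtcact
Atf3 promoter 1: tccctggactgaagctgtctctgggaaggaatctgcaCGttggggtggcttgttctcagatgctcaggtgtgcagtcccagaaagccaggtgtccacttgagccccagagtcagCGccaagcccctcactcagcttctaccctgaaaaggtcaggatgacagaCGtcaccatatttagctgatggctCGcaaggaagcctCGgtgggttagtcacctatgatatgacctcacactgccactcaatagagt
Atf3 promoter 2: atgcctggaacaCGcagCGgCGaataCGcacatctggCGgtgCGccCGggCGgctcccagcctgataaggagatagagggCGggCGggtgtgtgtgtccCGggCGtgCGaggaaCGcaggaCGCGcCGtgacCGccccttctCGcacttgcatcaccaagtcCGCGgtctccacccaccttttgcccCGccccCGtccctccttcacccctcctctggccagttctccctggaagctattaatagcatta

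Esrrb is shown as a case in which the marked promoter had fewer CG in its upstream bases than an unmarked one. Promoter 1, marked in none, lies at chr12:86360867-86361116 (plus strand, 6 CG), and promoter 2, marked in all 6 lists, at chr12:86421394-86421643 (plus strand, 3 CG). Over the 1001 bases centred on the TSS the order was the other way, with an observed to expected CpG ratio of 0.28 at promoter 1 and 0.66 at promoter 2. Promoter 3, marked in none, had a ratio of 0.62, close to but below that of promoter 2, which had the highest ratio of the gene.
Esrrb promoter 1: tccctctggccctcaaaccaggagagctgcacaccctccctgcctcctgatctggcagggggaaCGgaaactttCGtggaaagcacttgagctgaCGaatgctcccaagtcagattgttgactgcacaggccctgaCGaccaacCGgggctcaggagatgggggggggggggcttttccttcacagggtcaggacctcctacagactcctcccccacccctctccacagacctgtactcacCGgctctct
Esrrb promoter 2: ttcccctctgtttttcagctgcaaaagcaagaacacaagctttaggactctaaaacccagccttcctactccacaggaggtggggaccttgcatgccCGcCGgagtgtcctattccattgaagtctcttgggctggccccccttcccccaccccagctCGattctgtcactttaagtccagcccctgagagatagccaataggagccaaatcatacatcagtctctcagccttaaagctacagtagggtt

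In these retinas the H3K27ac of widely spaced promoters sat mostly at the most upstream start of a gene. Of the 3282 promoters, 725 (22.1%) were marked in all 6 lists and 1811 (55.2%) in none. The first promoter was marked in all 6 lists in 520 of 1341 genes (38.8%), a middle promoter in 67 of 600 (11.2%) and the last promoter in 138 of 1341 (10.3%). The first promoter was marked in 49.96, 48.1 and 63.4% of genes in control 1 to 3 and in 48.4, 45.2 and 44.7% in 4xIOP 1 to 3. The last promoter of the same genes was marked in 17.4, 16.2 and 29.2% and in 15.9, 15.0 and 13.9%. In each list the first promoters lay above the last ones. The difference was 32.0 percentage points ± 1.404 (SD, n = 6 lists, range 30.2 to 34.2, higher in 6 of 6 lists, two-sided exact sign-flip permutation p = 0.03125, the smallest that 6 lists allow). Middle promoters were marked in 19.2, 18.5 and 32.2% and in 18.2, 18.0 and 13.8%, which was 2.04 points above the last ones on average and above them in 5 of 6 lists (exact sign-flip permutation p = 0.0625).

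**Figure D1:**
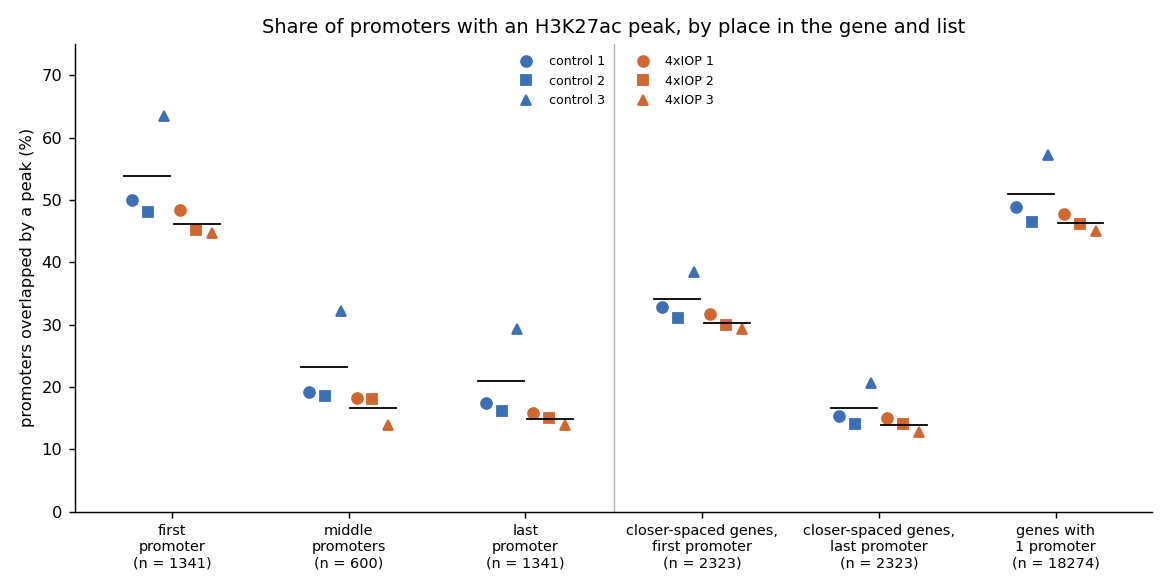
Percentage of promoters marked by a peak (vertical axis) in each of the 6 lists (points, control and 4xIOP), for first, middle and last promoters of the 1341 genes (left) and for first and last promoters of closer-spaced genes and genes with 1 promoter (right), with lines at the group means. In each list the first promoters lie about as high as those of genes with 1 promoter, the middle and last ones lie below them, and control 3 is the highest point of each set.

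Counted per promoter, members were marked less often than the promoters of other protein-coding genes, of which 18274 of 23000 belong to genes with 1 promoter. Counted per gene the order was the other way. On average over the lists, 60.1% of the member genes had a marked promoter, beside 47.5% of the other coding genes. This difference was 12.6 points (10.3 to 18.7, higher in 6 of 6 lists, exact sign-flip permutation p = 0.03125). Promoters of the other genes were marked in 40.1 to 51.5% per list, and the members differed from them by −12.1 points on average (−13.7 to −7.76, lower in 6 of 6 lists, exact sign-flip permutation p = 0.03125). The first promoters differed from the promoters of the 18274 other genes with 1 promoter by 1.36 points ± 2.55 (SD, −0.919 to 6.20, higher in 4 of 6 lists, exact sign-flip permutation p = 0.219), which was within the spread between lists. The 2323 other genes with several promoters have them closer together. There the first promoter was marked in 29.3 to 38.5% per list, beside 44.7 to 63.4% in members. The last was marked in 12.7 to 20.6%, beside 13.9 to 29.2%.

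Genes fell into classes by how many of their promoters carried the mark. In 93 genes (6.94%) several promoters were marked in all 6 lists, namely 2 in 90 genes and 3 in 3 genes. This count was 49 with peaks of a −log10 q of at least 5, 46 when the lists were cut to equal numbers of top peaks and 48 without windows that hold a TSS of another gene. In 350 genes (26.1%) a single promoter was marked in all 6 lists and every other promoter in none. In a further 186 genes (13.9%) 1 promoter was marked in all lists and others in some. In 382 genes (28.5%) no promoter was marked in all lists but at least 1 was marked in some, and in 330 genes (24.6%) no promoter was marked in any list. A promoter without a peak is only known to have no signal past the authors' threshold, since the lists hold no values below it.

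The single marked promoter was the first in 298 of the 350 genes (85.1%), a middle one in 14 and the last in 38. Those with the highest mean fold percentile, the rank of the fold among all peaks of the list, were Gm17657, Ap1g1, Spata48, Hmgxb4 and Adam1a among the first ones. Ap1g1, an adaptor subunit of vesicle coats, had a fold of 9.88, 13.0 and 11.4 in the control lists and of 9.39, 8.48 and 9.21 in the 4xIOP lists at promoter 1, and no peak at promoter 2, 84.6 kb downstream. Hmgxb4, a protein with an HMG box, had folds of 7.31 to 11.1 at promoter 1 and no peak 22.9 kb downstream. The windows of the other 3 also hold a TSS of another gene, Tbc1d22b at Gm17657, Zpbp at Spata48 and Mapkapk5 at Adam1a, and the peak there cannot be assigned to 1 gene. With windows of 1 kb, Spata48 promoter 1 was marked in 0 lists.

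In 52 genes the single marked promoter was a later one. Scoc, a short coiled-coil protein of the Golgi, had folds of 6.51, 6.70 and 11.3 in the control lists and of 9.02, 4.83 and 7.53 in the 4xIOP lists at promoter 2, and no peak at promoter 1 or 3. Rnf220, a ubiquitin ligase, was marked at promoter 3, 207.6 kb from promoter 1, with folds of 5.13 to 8.83, and not at promoters 1 and 2. The other 3 with the highest percentiles were Rbbp8, Siae and 4430402I18Rik, each at promoter 2 in a window that also holds a TSS of another gene (AC090479.2, Spa17 and Plpp6). Of the 350 marked windows, 230 held no TSS of another gene, and of those 188 (81.7%) were first promoters.

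The promoters marked in all lists were rich in CpG. Within 500 bases on either side of the TSS, the median observed to expected CpG ratio was 0.78 in the 725 promoters marked in all 6 lists, 0.53 in the 746 marked in 1 to 5 lists and 0.25 in the 1811 marked in none, beside 0.48 over all promoters of coding genes. The median number of CG in the 250 upstream bases was 19 (interquartile range 10 to 28), 9 and 3 (1 to 5.5) in the same order. Promoters were called CpG rich with a ratio of at least 0.6 and a GC content of at least 50%, which held for 75.6, 41.6 and 6.13% of them. TATAAA was held by 5.93, 6.57 and 14.7% and TAATCC by 6.21, 5.63 and 7.01%. Among the promoters marked in all lists, the 205 middle and last ones held TAATCC in 10.7% and the 520 first ones in 4.42%, beside 7.68 and 5.18% of the middle and last and of the first ones marked in none. These shares are descriptions of letters, not of binding.

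CpG content and position both went with the mark. Among first promoters the CpG-rich ones were marked more often than the others by 52.6 points ± 3.31 (SD, n = 6 lists), and among middle and last promoters by 50.8 points ± 5.99 (each 6 of 6 lists, exact sign-flip permutation p = 0.03125). Among CpG-rich promoters alone, the 735 first ones were marked in 66.8 to 89.1% and the 234 later ones in 54.3 to 85.0% per list, a difference of 10.5 points (4.07 to 13.1, 6 of 6 lists, exact sign-flip permutation p = 0.03125). In the lowest class of CpG ratio (under 0.2) 4.38% of first and 2.96% of later promoters were marked in all lists, and in the highest (0.8 and above) 70.9 and 56.7%. Within a gene, the single marked promoter had the highest CpG ratio of all its promoters in 337 of 350 genes (96.3%), in 292 of 298 where it was the first and in 45 of 52 where it was a later one. Over all 1341 genes the promoter of highest CpG ratio was the first in 961 (71.7%).

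**Figure D2:**
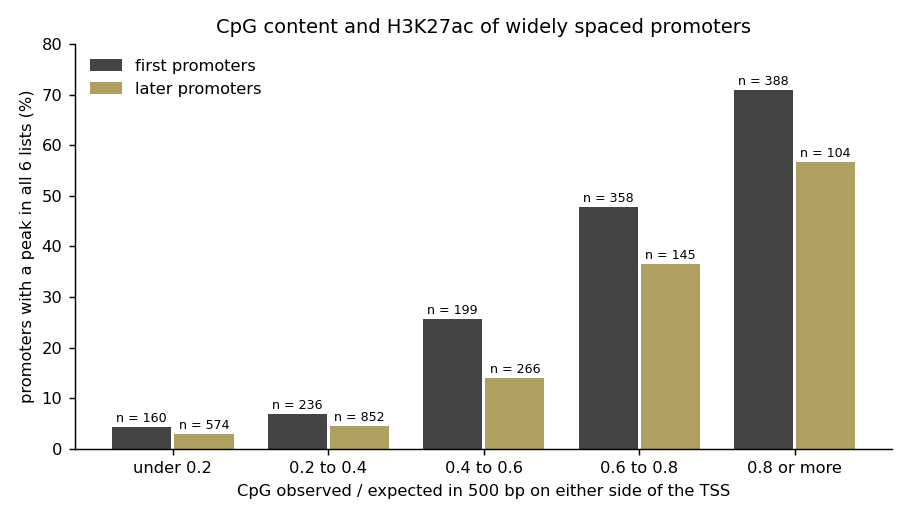
Percentage of promoters marked in all 6 lists (vertical axis) against the observed to expected CpG ratio over 1001 bases around the TSS, in 5 classes (horizontal axis), for first promoters (dark bars) and for middle and last ones (later, light bars), with the number of promoters above each bar. The bars rise from 4.38% and 2.96% in the lowest class to 70.9% and 56.7% in the highest.

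Marked promoters also had more annotated transcripts, and RefSeq more often had a start at them. Of the promoters marked in all lists 53.0% had 2 or more transcripts, and of those in none 24.0%. Among genes found in RefSeq by symbol, a RefSeq TSS lay within 500 bp of 82.8% of the former (n = 587) and 46.7% of the latter (n = 1453). A TSS of another gene lay in the window of 32.4% of the former and 9.22% of the latter, beside 23.9% over all coding promoters. In promoters marked in all lists, the distance from the summit of the peak with the highest fold to the promoter's nearest TSS was taken. Its median was 258 bp at first promoters, 278 bp at middle and 274 bp at last ones. It was within 500 bp in 83.8, 79.9 and 75.8%.

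The fold enrichment of the mark was lower at later promoters. Among promoters marked in all 6 lists the median fold percentile was 64.7 to 82.9 per list for first promoters (n = 520), 39.8 to 71.2 for middle ones (n = 67) and 52.6 to 74.9 for last ones (n = 138), beside 72.2 to 87.7 for those of other coding genes (n = 8131). In each list the median was highest at first promoters, then at last and then at middle ones. Control 3 had the highest median of each set.

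The classes differed with the distance between the outermost TSSs. The first promoter was marked in all lists in 42.8% of 605 genes spanning 20 to 50 kb, 43.7% of 348 spanning 50 to 100 kb, 31.2% of 221 spanning 100 to 200 kb and 24.0% of 167 spanning 200 kb or more. The last promoter was marked in all lists in 11.4, 11.8, 8.597 and 5.39% in the same order, and several promoters in 6.94, 10.1, 5.43 and 2.40% of genes. These 3 shares were highest in the class of 50 to 100 kb and not in the shortest. A single marked promoter was found in 32.1% of the 605 genes, 26.7% of 348 spanning 50 to 100 kb, 19.5% of 221 spanning 100 to 200 kb and 11.98% of the 167. Genes marked at no promoter in any list made up 26.1, 25.3, 24.9 and 17.4% of the classes.

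In the 93 genes with several promoters marked in all lists, the outermost marked promoters were a median of 42.7 kb apart, with the longest distance of 732 kb in Camta1, and 3 pairs were under 5 kb apart, where the windows overlap. Both promoters were CpG rich in 33 genes, only the upstream one in 38, only the downstream one in 12 and neither in 10. In 55 genes the transcripts of the 2 promoters share no coding start, so that they encode proteins with different N termini in the annotation, and in 38 genes at least 1 start is shared. The upstream promoter had the higher fold percentile in all 6 lists in 34 genes, the downstream one in 11, and the order changed among the lists in 48. By the number of fragments at the summit the upstream promoter was higher in all 6 lists in 24 genes and the downstream one in 30. Fold is relative to a local background, so the order within a gene depended on which of these values was used.

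The genes with 3 marked promoters were Map4, Rai1 and Tmem229b, and each had fewer under another setting. Map4 promoter 2 was marked in 4 lists at a −log10 q of at least 5 and in 2 with the same number of top peaks per list, Rai1 promoter 2 in 3 under both, and Tmem229b promoter 3 in 0 with windows of 1 kb. Map4, a microtubule-associated protein, had folds of 5.33, 3.74 and 7.13 in the control lists and of 5.36, 4.74 and 5.58 in the 4xIOP lists at promoter 1. At promoter 2, 120.6 kb downstream, it had 3.22, 3.02 and 3.51 and 2.99, 2.73 and 3.56, and at promoter 3 it had 2.98, 3.81 and 3.80 and 3.75, 3.42 and 3.22. Promoter 1 lay above promoter 2 in each list and above promoter 3 in all lists but control 2, and the groups overlapped at each of the 3. Rai1, a chromatin protein, had 3 CpG-rich promoters with folds of 3.47 to 4.62, 2.67 to 4.94 and 3.06 to 3.96. In Tmem229b promoters 2 and 3 were covered by the same peak (fold 2.90 to 3.46), and promoter 1 had folds of 4.64 to 5.82. Tmcc1 had 2 of 5 promoters marked in all lists, both in windows that hold a TSS of another gene, and the other 3 in 1 to 5 lists.

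**Figure D3:**
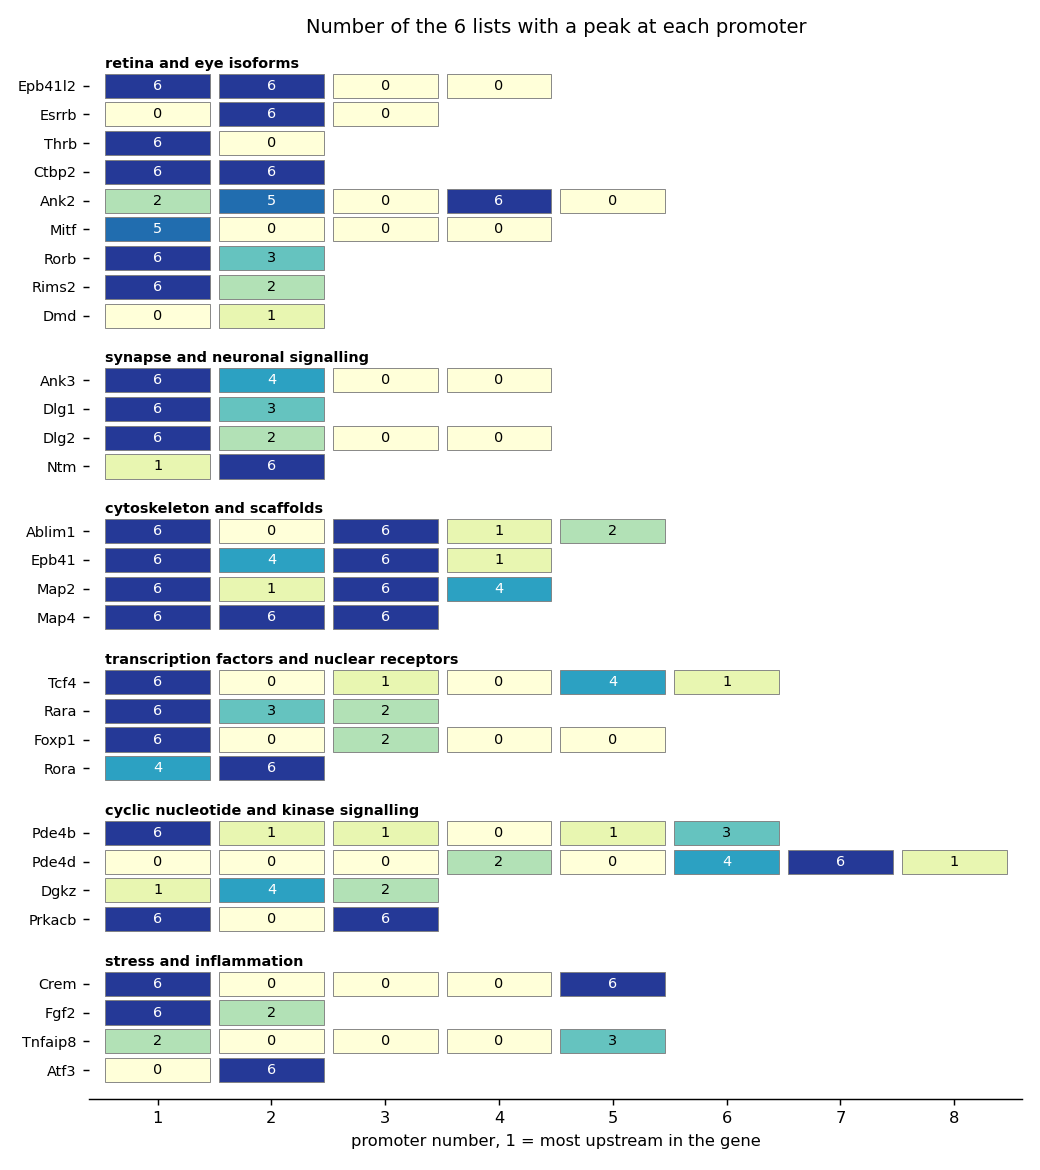
Number of lists, of 6, in which each promoter of the named genes was marked (the number in each box, with darker boxes for more lists), by gene (rows, grouped by gene list) and promoter number from upstream to downstream (columns). Map4 reaches 6 lists at 3 promoters, Pde4d at promoter 7 of 8, and Thrb, Esrrb and Atf3 at 1 promoter with 0 lists at the others.

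Genes with known isoforms in retina or eye were described from a list of 27, of which 9 had widely spaced promoters. Of these 0 had no promoter marked in any list, beside 24.6% of all member genes, 5 had 1 in all lists (55.6%, beside 39.97%) and 2 had several, Ctbp2 and Epb41l2 (22.2%, beside 6.94%), which became 1 under the stricter q limit and 0 with equal numbers of top peaks. In all, of their 26 promoters 34.6% were marked in all lists, beside 22.1% of all members. Ctbp2 encodes a transcriptional corepressor and, from an internal start, RIBEYE, the main protein of the synaptic ribbons of photoreceptors and bipolar cells. Its promoter 1 had folds of 3.66, 3.24 and 4.88 in the control lists and of 3.31, 3.28 and 3.41 in the 4xIOP lists. Its promoter 2, 108.1 kb downstream, had folds of 3.15, 3.29 and 2.96 and 2.26, 2.45 and 3.33. By fold, promoter 1 was higher in 5 of 6 lists. By fragments at the summit promoter 2 was the higher in each list, with 102, 95 and 151 fragments in control and 61, 67 and 69 in 4xIOP, beside 39, 40 and 105 and 34, 35 and 31 at promoter 1. The groups overlapped in fold at promoter 2, which was marked in 2 lists with the same number of top peaks. Fragments are not scaled for depth, so the groups were not compared on them. The window of promoter 1 also holds a TSS of Fgfr2.

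Of 3 nuclear receptors of photoreceptors, Thrb and Esrrb were marked at 1 start and Rorb at 2, the second in control lists alone. Thrb, a thyroid hormone receptor needed in cones, had folds of 3.44, 3.74 and 3.94 in the control lists and of 3.17, 3.14 and 4.17 in the 4xIOP lists at promoter 1, and no peak at promoter 2, 320.6 kb downstream. Esrrb, an orphan receptor of rods, had folds of 2.77, 3.38 and 3.41 and of 3.04, 2.75 and 2.56 at promoter 2, 60.5 kb from promoter 1, and no peak at promoters 1 and 3. With the same number of top peaks Esrrb promoter 2 was marked in 2 lists and Thrb promoter 1 in 4. The groups overlapped at both genes. Rorb, an orphan receptor for which an isoform with its own start is known in photoreceptors, was marked in all lists at promoter 1 with folds of 2.80, 3.54 and 4.05 and of 3.73, 3.90 and 2.78. At its promoter 2, 110.1 kb downstream, it had folds of 3.15, 3.28 and 3.56 in the control lists and no peak in the 4xIOP lists.

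The other genes of this list had 0 to 2 promoters in all lists. Epb41l2, a membrane skeleton protein, had 2 of 4, with folds of 3.56 to 6.27 at promoter 1 and of 2.09 to 2.62 at promoter 2, 48.6 kb downstream. Promoter 2 lay among the weakest peaks of each list (percentile 0.487 to 7.19), although 40 to 99 fragments were found at its summit, and was marked in 1 list with the same number of top peaks. Rims2, a protein of the presynaptic active zone, was marked in all lists at promoter 1 (4.20 to 5.99) and in control 2 and 3 at promoter 2, 461.2 kb downstream. Ank2, an ankyrin, was marked in all lists but 4xIOP 1 at promoter 2, with folds of 6.42, 4.30 and 5.32 in control and of 4.88 and 4.53 in 4xIOP, and in control 3 and 4xIOP 1 at promoter 1. It was marked in all lists, with lower folds (3.11 to 4.00), at promoter 4, where the window also holds a TSS of Gm16958. Mitf, the regulator of pigment cells, had folds of 5.78 and 5.67 in control 1 and 3 and of 4.95, 3.55 and 3.93 in 4xIOP at promoter 1, with no peak in control 2 and none at promoters 2 to 4. Dmd, dystrophin, had no peak at promoter 1 and 1 in control 3 at promoter 2.

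**Figure D4:**
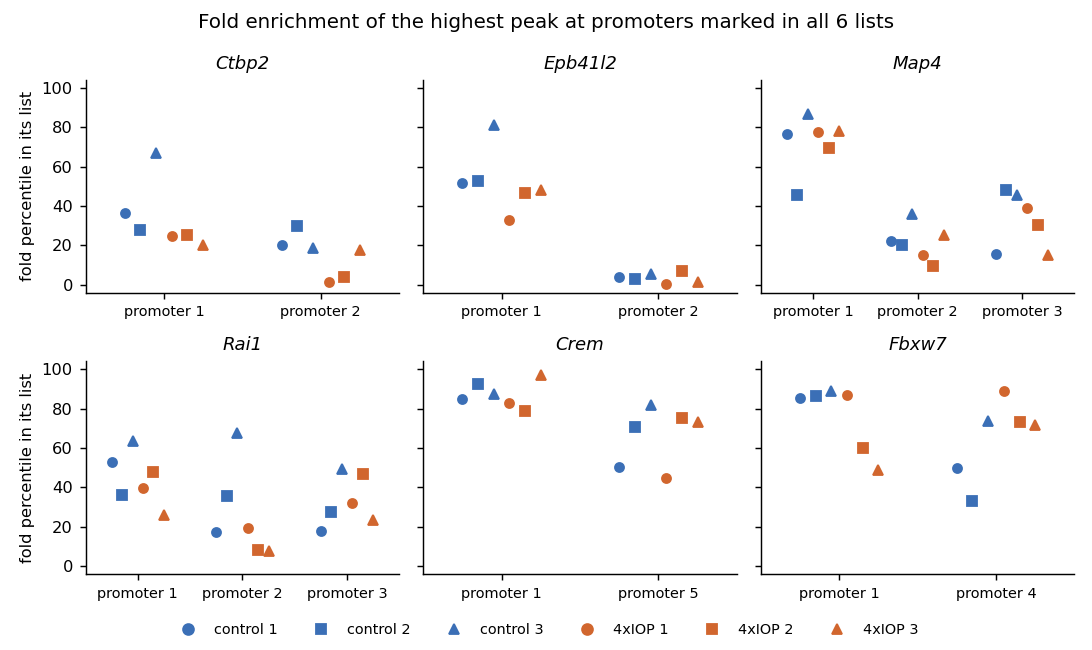
Fold percentile of the highest peak in its list (vertical axis) at the promoters marked in all 6 lists of 6 genes (panels), with 1 point per list (shape, replicate; colour, group). Promoter 2 of Epb41l2 lies below 8 in each list, and at Fbxw7 the control points fall from promoter 1 to promoter 4 while those of 4xIOP rise.

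Several marked promoters were found in 7 cytoskeletal and 0 synaptic genes of the lists used here. Of 27 cytoskeletal genes, 7 had several promoters in all lists (Ablim1, Epb41, Magi1, Map2, Map4, Sorbs2 and Sptbn1), 9 had 1 in all lists and 0 had none in any list. These were 25.9, 33.3 and 0% of them, beside 6.94, 39.97 and 24.6% of all 1341 genes. The 7 became 3 at a −log10 q of at least 5 (Epb41, Map4 and Sptbn1), 1 with the same number of top peaks (Magi1) and 5 without windows that hold a TSS of another gene (without Epb41 and Sptbn1). Of their 82 promoters 29.3% were marked in all lists, beside 22.1% of all members. Map2, a microtubule-associated protein of dendrites, had folds of 4.19, 4.06 and 6.09 and of 3.67, 4.38 and 4.22 at promoter 1, and of 3.41, 3.64 and 3.55 and of 3.31, 3.40 and 4.20 at promoter 3, 146.4 kb downstream. Ablim1, an actin-binding LIM protein, was marked at promoter 1 with folds of 4.68 to 5.61 and at promoter 3 with 2.33 to 3.77, which fell to 2 lists with the same number of top peaks. Epb41 was marked at promoters 1 (2.46 to 3.71) and 3 (2.82 to 3.75), in windows that also hold a TSS of Gm10300 and of Gm13063, and each fell to 2 lists with the same number of top peaks. Of 28 synaptic genes 0 had several promoters in all lists, 7 had 1 (Ank3, Dlg1, Dlg2, Erc2, Gnas, Ntm and Unc13b, 25%, beside 39.97% of all member genes) and 1 had none (3.57%, beside 24.6%). Of their 84 promoters 8.33% were marked in all lists, beside 22.1% of all members, and 52.4% in at least 1 list, beside 44.8%. Dlg2, a scaffold of the postsynaptic density whose first and last promoters lie 1585 kb apart, was marked in all lists at promoter 1, where the window also holds a TSS of Tmem126b. In Ntm, a cell adhesion protein, promoter 2 was marked with folds of 3.82 to 4.39, and promoter 1, 550.9 kb upstream, in control 3 alone. These lists were not tested against each other.

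Transcription factors had 8 of 23 genes with 1 promoter in all lists (34.8%, beside 39.97% of all member genes), 0 with several (beside 6.94%) and 5 with none in any list (Erg, Foxp2, Pparg, Runx1 and Sox5, 21.7%, beside 24.6%). Tcf4, a bHLH factor, was marked in all lists at promoter 1 of 6 (3.86 to 5.50) and in 4 lists at promoter 5. Foxp1 was marked in all lists at promoter 1 (3.85 to 6.35), which fell to 1 list with windows of 1 kb. Rora was marked in all lists at promoter 2 (2.96 to 4.00), 635.9 kb from promoter 1, which was marked in 4 lists. Rara, a retinoic acid receptor, had folds of 2.36 to 2.56 at promoter 1. With the same number of top peaks Rora promoter 2 was marked in 3 lists and Rara promoter 1 in 1.

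Kinase and cyclic nucleotide genes had 1 gene of 21 with several promoters in all lists (4.76%, beside 6.94% of all member genes), 9 with 1 (42.9%, beside 39.97%) and 2 with none (Pde1a and Ptk2b, 9.52%, beside 24.6%). Prkacb, a catalytic subunit of protein kinase A, had folds of 7.30, 8.16 and 8.18 in the control lists and of 5.61, 6.50 and 5.95 in the 4xIOP lists at promoter 1. At promoter 3, 42.2 kb downstream, it had 4.04, 4.24 and 3.99 and 3.12, 3.43 and 3.69, and it was marked in 4 lists under the stricter q limit as well as with equal numbers of top peaks. The folds of the control lists were higher at both promoters without overlap, and the percentiles overlapped at promoter 1 and not at promoter 3. The cAMP phosphodiesterases are known for isoforms from many starts. Of 8 promoters of Pde4d only promoter 7, 1249 kb from promoter 1 and in a window that also holds a TSS of Mir1904, was marked in all lists, with folds of 5.04, 3.91 and 5.32 and of 4.75, 3.84 and 3.25, while promoter 6 was marked in 4 lists (3.37 to 5.98). Of 6 promoters of Pde4b only promoter 1 was marked in all lists (3.26 to 5.92). Dgkz, a diacylglycerol kinase, had 3 promoters marked in 1, 4 and 2 lists.

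Of 42 stress and inflammation genes 10 had widely spaced promoters, of which 1 had several in all lists (beside 6.94% of all member genes), 6 had 1 (beside 39.97%) and 2 had none (Fgf1 and Trp63, beside 24.6%). Crem, a cAMP-responsive factor known for the short repressor ICER made from an internal start, was marked at promoter 1 with folds of 5.98, 6.56 and 7.26 and of 5.75, 5.27 and 7.95, in a window that also holds a TSS of Gm6225. It was also marked at promoter 5, 55.8 kb downstream, with folds of 4.08, 4.70 and 6.39 and of 3.94, 5.04 and 5.29, and its promoters 2 to 4 had no peak. Under the stricter q limit promoter 5 was marked in 5 lists. The groups overlapped at both promoters. Atf3, a transcription factor induced by stress, had folds of 3.87, 3.65 and 3.69 in control and of 4.11, 5.96 and 4.77 in 4xIOP at promoter 2, without overlap, and no peak at promoter 1. Fgf2, a growth factor of the injured retina, had folds of 2.92, 3.10 and 4.66 and of 3.30, 3.73 and 3.53 at promoter 1, in a window that also holds the antisense gene Fgf2os, and was marked at promoter 2 in control 1 and 2 alone. The summits at promoter 1 held 101, 107 and 29 fragments in control and 19, 22 and 62 in 4xIOP. The highest peak in this window may therefore not be the same one in each list. Tnfaip8 was marked in 3 lists at promoter 5 and in 2 at promoter 1.

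Whether the pressure changed how many promoters were marked was asked over the lists. Members were marked in 31.0, 29.6 and 43.7% in control and in 29.6, 27.9 and 26.4% in 4xIOP (34.8% ± 7.75 and 28.0% ± 1.57, SD, n = 3). The difference of −6.84 points had an exact permutation p of 0.1, the smallest that 3 against 3 allow, and without control 3 it was −2.38 points (exact permutation p = 0.2). Genes with several marked promoters made up 14.7, 13.6 and 28.4% in control and 12.6, 11.8 and 9.99% in 4xIOP, a difference of −7.43 points (exact permutation p = 0.1) that was −2.67 without control 3. Genes with 1 marked promoter made up 43.9 to 46.1% and 43.5 to 46.1% in the 2 groups (difference −0.572 points, exact permutation p = 0.8). The groups overlapped in the share of genes with 1 marked promoter. Control 3 held 272 of the 298 members marked in 1 list (91.3%), and both differences were smaller without it. With each list reduced to the same number of top peaks, the first difference was −2.00 points (exact permutation p = 0.4) and the second −0.92 points (exact permutation p = 0.3). The difference between groups at members minus that at the other coding promoters was −2.55 points (exact permutation p = 0.1), and that at last minus first promoters was 1.69 points (exact permutation p = 0.3). Without control 3 these were −1.03 points (exact permutation p = 0.1) and 1.04 points (exact permutation p = 0.4).

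Promoters marked in every list of 1 group only were few. Among the members 18 (0.548%) were marked in every control list and no 4xIOP list, beside 0.346% of all coding promoters, and 0 were marked in every 4xIOP list and no control list, beside 0% of all coding promoters. These counts depended on which lists had to agree. Without control 3 they were 19 (0.579%, beside 0.365%) and 4 (0.122%, beside 0.145%). For control they were 45 without control 1 (1.37%, beside 0.742%), 59 without control 2 (1.80%, beside 1.22%), and 35, 41 and 30 without 4xIOP 1, 2 and 3 (1.07, 1.25 and 0.914%, beside 0.753, 0.628 and 0.677%). For 4xIOP they were 0 without control 1, control 2 or 4xIOP 1 (beside 0, 0.00761 and 0.0038%) and 1 without 4xIOP 2 or 3 (0.0305%, beside 0.00761 and 0.0152%). With equal numbers of top peaks they were 5 for control (0.152%, beside 0.205%) and 4 for 4xIOP (0.122%, beside 0.0761%). In the 2 lists whose own name gives the group of their label, 582 (17.7%, beside 12.4%) were marked in control 3 only and 15 (0.457%, beside 0.236%) in 4xIOP 3 only. By the names of the lists, the 18 would be marked in 2 lists of 4xIOP and 1 of control. The 5 with the highest mean percentile were Msrb3 promoter 1, a methionine sulfoxide reductase, with folds of 5.01, 4.34 and 4.90 in the control lists, Pak3 promoter 1, a kinase of dendritic spines (4.07, 4.11 and 5.59), Dlgap4 promoter 1, a postsynaptic scaffold (4.45, 3.77 and 5.44), Klhl5 promoter 2 (3.42, 3.77 and 4.35) and Zbtb7c promoter 2 (3.68, 3.55 and 4.24). At Msrb3 the summits held 15, 18 and 16 fragments and at Pak3 12, 17 and 19, beside medians of 26 to 37 over all peaks of a list. The windows of Msrb3 promoter 1 and of Dlgap4 promoters 1 and 3 also hold a TSS of another gene. Dlgap4 promoter 3 was marked in all lists but 4xIOP 3, and Pak3 promoter 2 in control 1, control 3 and 4xIOP 2. The other 13 included Rorb promoter 2 (percentiles 20.4, 29.7 and 37.5), Mef2c promoter 3 and Rara promoter 2.

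The height of the mark was compared at promoters marked in all 6 lists. The highest fold at each promoter was ranked within its list, turned into a normal score and tested with limma over all 8856 such promoters of coding genes. Of these, 0 passed an adjusted p of 0.05 (0%), and so did 0 of the 725 members. At an unadjusted p under 0.05 there were 285 of all (135 higher and 150 lower in 4xIOP) and 18 members (8 higher and 10 lower), where the smallest limma adjusted p was 0.999. On simulated data of this size, a shift of 1 in the normal score was recovered in 8.00% of 200 changed promoters and a shift of 2 in 97.5%. Changes of about 1 were thus rarely detectable at this number of lists. The simulation gave each promoter the same spread and shifted all 200 in 1 direction. Recovery of fewer changed promoters was not measured. The 3 members with the smallest p in each direction were Fbxw7 promoter 4 (1.28 ± 0.373, SE), Atf3 promoter 2 (1.13 ± 0.407) and Anks1 promoter 1 (1.01 ± 0.405) with higher scores in 4xIOP. With lower scores they were Gatad2a promoter 2 (−1.28 ± 0.359), Nck1 promoter 1 (−1.13 ± 0.355) and Btbd8 promoter 1 (−1.04 ± 0.398). The limma adjusted p was 0.999 for each. The Atf3 difference was 0.74 without 4xIOP 2, and the window of Anks1 promoter 1 also holds a TSS of Taf11. Nck1, an adaptor of receptor kinases, had folds of 6.94, 5.56 and 8.35 in control and of 4.67, 4.55 and 4.23 in 4xIOP, which did not overlap. Gatad2a, a subunit of a chromatin remodelling complex, had folds of 5.77, 5.27 and 6.67 and of 3.81, 3.82 and 3.48 at promoter 2, also without overlap, and its promoter 1 overlapped between the groups.

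Whether the use of 1 promoter relative to another changed was tested within genes. The test used the 161 coding genes with several promoters marked in all lists and no peak that is the highest at both, among them 92 of the 93 genes described above. The score of the most downstream marked promoter was subtracted from that of the most upstream one. With limma, 0 of the 161 passed an adjusted p of 0.05 (0%), and 5 had an unadjusted p under 0.05 (1 higher and 4 lower in 4xIOP), of which 3, each lower, were among the 92 members. The smallest adjusted p was that of Fbxw7, the substrate receptor of a ubiquitin ligase that degrades cyclin E and Myc. At Fbxw7 promoter 1 the folds were 6.04, 5.82 and 7.60 in control and 6.13, 4.34 and 4.28 in 4xIOP, and at promoter 4, 136.9 kb downstream, 4.07, 3.38 and 5.44 and 6.34, 4.91 and 5.23. By fold, promoter 1 was higher in each control list and promoter 4 in each 4xIOP list, and promoters 2 and 3 had no peak. By fragments at the summit, promoter 1 was higher in each control list (32, 39 and 69 beside 21, 21 and 39), but the order in 4xIOP was mixed (37, 25 and 21 beside 31, 25 and 25), so that the reversal rests on the fold. The difference in score was 1.34, 1.99 and 1.02 in control and −0.13, −0.43 and −0.78 in 4xIOP, without overlap. The mean difference between the groups was −1.89 ± 0.495 (SE, 4xIOP minus control, limma adjusted p = 0.0819 over the 161 genes).

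The Fbxw7 difference stayed on 1 side of 0 in every alternative in which the gene could be fitted, with limma adjusted p of 0.0186 to 0.627. At a −log10 q of at least 5, promoter 4 was marked in 5 lists, so that Fbxw7 was not in the test, where the smallest limma adjusted p of any gene was 0.989. It passed 0.05 when each list was reduced to the same number of top peaks (adjusted p = 0.0479) and when windows holding a TSS of another gene were left out (adjusted p = 0.0186), both with fewer genes tested. The lists differ in the length of their shortest peak, 220 to 232 bp in control 1 and 4xIOP 1 and 2 and 187 to 195 bp in the other 3, and the control lists were above the 4xIOP lists within each of these sets. Each set has only 1 list of 1 group, and whether this length bears on the difference was not tested. By the groups that the names of the lists give, the differences in score would be −0.13, −0.43 and 1.02 for control and 1.34, 1.99 and −0.78 for 4xIOP. Those groups would overlap, with the higher mean in 4xIOP, so that the direction holds only for the samples as labelled. Among the members, Rab11fip3, a Rab11 effector, followed with 1.11, −0.0023 and 0.74 in control and −0.29, −0.85 and −0.53 in 4xIOP (−1.17 ± 0.497, limma adjusted p = 0.974). Fam214a came next among them with 2.62, 3.05 and 2.52 and 1.23, 2.00 and 1.65 (−1.10 ± 0.490, limma adjusted p = 0.974). In the other direction Gatad2a (0.99 ± 0.542), Sorbs2 (0.95 ± 0.532) and Plch2 (0.81 ± 0.513) had the smallest p among the members, each with a limma adjusted p of 0.974. These 3 differences moved by over 1.5 times with single lists: Gatad2a was 0.28 without 4xIOP 3, Sorbs2 was 0.33 without control 1, and Plch2 was 0.50 without control 2 and 1.30 without control 3. With the highest −log10 p in place of the fold, Sorbs2 was 1.61, Plch2 1.36 and Rab11fip3 −1.88. A shift of 2 in such a difference was recovered in 90.6% of 32 changed genes on simulated data and a shift of 1 in 0%. The simulation gave each of the 161 genes the same spread and shifted all 32 in 1 direction. Recovery of 1 changed gene alone was not measured.

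**Figure D5:**
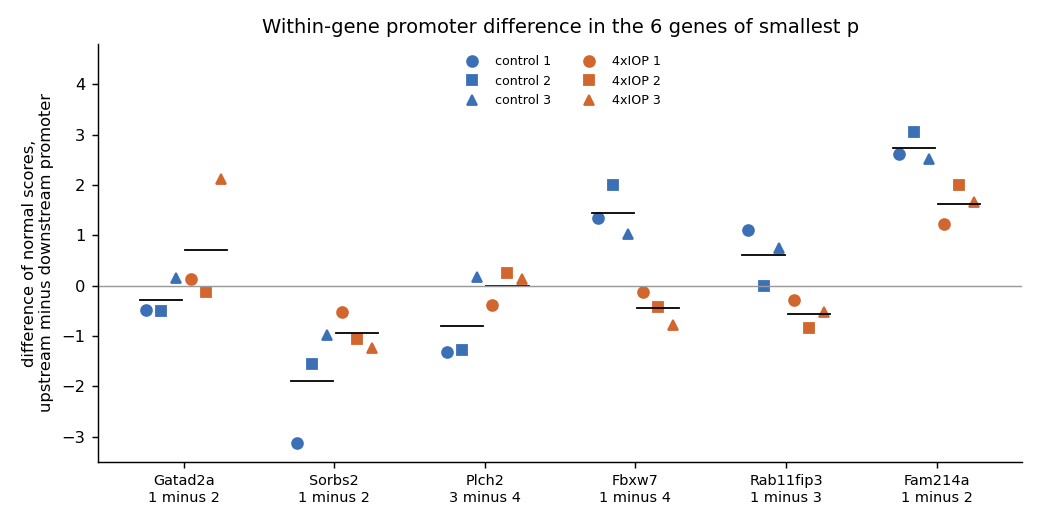
Difference in normal score between the upstream and the downstream marked promoter (vertical axis) in each list (points) for 6 genes, the 3 per direction with the smallest limma p among the members. At Fbxw7 the 3 control points lie between 1.02 and 1.99 and the 3 4xIOP points between −0.78 and −0.13.

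Which promoter carried the mark was followed in genes with exactly 1 marked promoter in a list, so that a second promoter gained or lost is not counted. In 186 genes other promoters were marked in some lists beside the 1 marked in all, and in 382 genes the marked promoters were each missing from some list. In 350 genes exactly 1 promoter was marked in each of the 6 lists, and in all 350 it was the same one. Of 736 genes with exactly 1 marked promoter in 2 or more lists, it was not the same one in 26. In Epb41l1, a membrane skeleton protein, promoter 1 stood alone in control 1 and promoter 2 alone in control 2 and the 3 4xIOP lists, and both were marked in control 3. In Nrxn2, a presynaptic adhesion protein, promoter 1 stood alone in control 1 and 2 and 4xIOP 1 and 2, and promoter 3 alone in 4xIOP 3. In Dst, a cytoskeletal linker, promoter 1 stood alone in control 1 and promoter 3 alone in 4xIOP 1 and 2. In 11 of the 26 genes 1 promoter stood alone in control lists only and another in 4xIOP lists only, in each of the 11 with 1 list on at least 1 side. Among the 791 other coding genes with several promoters and exactly 1 marked in 2 or more lists, it was not the same one in 19 (2.40%, beside 3.53% of members). The split by group was found in 4 of these (0.506%) and in 1.49% of members, beside 0.982% of the 1527 coding genes of both kinds. The shares were not tested against each other. Epb41l1, Nrxn2 and Dst were chosen after their values were seen.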

How the data were processed

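H3K27ac ChIP-seq peaks of 6 bulk retina samples (3 control, 3 4xIOP) were analysed, with 1 deposited list per sample called without pooling. The authors' processing notes name STAR 2.7.8a, MACS2, bedtools 2.29.2 and mm10, without their roles. The deposited fold (a ratio over the local background at the summit), −log10 p-value and −log10 q-value of each peak were used as the authors gave them. The deposited integer score was not used. The lists state no read depth. Fragments at each summit were recovered from fold and p under a Poisson model, which returned the deposited p within 0.001 for 100% of peaks. Counting error of a peak is not given by the lists, and thresholded lists limit precision at weak promoters.

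Promoters were built from GENCODE vM21 and scored with Python 3.11.15 and pysam 0.24.0. Groups were compared with two-sided exact permutation tests (scipy 1.17.1) and, on ranks within lists, with limma 3.58.1 (R 4.3.3, Benjamini-Hochberg, threshold 0.05). Scripts were tested on simulated data. The 9 retina and eye genes and up to 4 genes of each other list with the most marked promoters were named. Also named were the 5 genes with the most promoters in all lists and the 5 genes per class of single promoter. Up to 5 promoters marked in 1 group only and the 3 members of smallest limma p per direction were added. The members, gene lists and tests were chosen with earlier results of these data known. Alternatives (thresholds, windows, grouping, shared windows, spans, left-out lists, a replicate block) are given at the end. Some items withheld from this text are not reported here.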

Additional observations from a re-analysis of the deposited data

How the results depend on the processing

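The share of promoters marked, the share of genes with several marked promoters and the difference between first and last promoters kept their direction in every alternative tried. Leaving out 1 list gave −9.41 to −2.38 points for the first, −10.1 to −2.67 for the second and 31.6 to 32.4 for the third (exact sign-flip permutation p = 0.0625, the smallest that 5 lists allow). With the same number of top peaks per list the first was −2.00 points (exact permutation p = 0.4) and the second −0.92 (exact permutation p = 0.3). The 93 genes with several promoters in all lists became 49 at a −log10 q of at least 5, 46 with the same number of top peaks per list, 48 without windows holding a TSS of another gene and 51 with outermost TSSs at least 50 kb apart, and the 350 genes with a single marked promoter became 156 at 50 kb. The last 3 of these counts start from fewer members. The promoters marked in 1 group only became 5 for control and 4 for 4xIOP with the same number of top peaks, and 19 to 59 and 0 to 4 when 1 list was left out, with 30 or more for control without any list but control 3, 59 of them without control 2, and 4 for 4xIOP without control 3. With the 2 lists whose own name gives the group of their label (chosen after seeing the data), the differences were −17.3, −18.4 and 32.5 points (exact sign-flip permutation p = 0.5 for the last), and 582 and 15 promoters were marked in 1 list only. The within-gene limma test called 1 gene, Fbxw7, with the same number of top peaks (adjusted p = 0.0479) and 1 without shared windows (adjusted p = 0.0186), and 0 in the others. Replicate numbers did not pair the samples (correlations of deviations −0.018, −0.041 and −0.144). With the numbers as a replicate block the differences in share were −6.84 and −7.43 points (exact sign-flip permutation p = 0.25, the smallest that 3 pairs allow), limma called 0 promoters and 0 genes, and Fbxw7 had an adjusted p of 0.237. In the alternatives that keep all 6 lists, the number of lists marking a named promoter was equal to that reported in 1074 of 1207 comparisons. Of the counts of genes with several promoters by gene list (alternatives chosen after seeing the data), that of cytoskeletal genes, 7, became 1 to 7, that of retina and eye genes, 2, became 0 to 3, that of kinase genes, 1, became 0 to 3, and that of stress genes, 1, became 0 or 1. The lists hold nothing below the authors' threshold, so that a missing peak sets no upper limit on the mark.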
